A study of Mus musculus with 6 samples.

Results

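The 10 genes described here encode the enzymes that build NAD from its precursors and that turn NAD(H) into NADP(H). They were chosen by name as Nampt, Naprt, Nadsyn1, Nmnat1, Nmnat2, Nmnat3, Nmrk1, Nadk, Nadk2 and Nnt, and each name was looked up among the 60193 genes of the expression matrix. All 10 names were found, on 11 Ensembl identifiers, since Nnt is listed under 2. Metaphase II (MII) oocytes of ICR mice, an outbred stock, were profiled by RNA-seq at an age of 42 to 45 weeks, an advanced reproductive age at which oocyte quality declines. The 3 IVM samples were germinal vesicle oocytes taken from PMSG-primed ovaries, stripped of cumulus cells and matured for 12 h in M16 medium without hormone exposure in the animal beyond PMSG. The 3 IVO samples were oocytes matured in the animal after PMSG and hCG and taken from the oviduct 14 h after hCG, with the cumulus cells removed by hyaluronidase. Each sample was a pool of 20 oocytes from 3 mice, so the maturation route, the hormones and the way of removing cumulus cells differed together between the groups.

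NAD carries electrons between the dehydrogenases of the cell and is also consumed by enzymes such as the sirtuins and the PARPs, so that it has to be rebuilt steadily. NAMPT makes nicotinamide mononucleotide (NMN) from nicotinamide, NMRK1 makes it from nicotinamide riboside, NAPRT starts from nicotinic acid, and the NMNAT enzymes turn the mononucleotides into dinucleotides. The NAD kinases add a phosphate to give NADP, and NNT, in the inner mitochondrial membrane, uses the proton gradient to reduce NADP with NADH. NADPH feeds the glutathione and thioredoxin systems, on which oocytes depend for their defence against reactive oxygen species.

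NMNAT1, NMNAT2 and NMNAT3 catalyse the same step in the nucleus, at the Golgi and cytosol, and in the mitochondria, and their 3 genes lay at very unequal levels in these oocytes. The regions around their start sites, from 250 bases before to 50 bases after the start, are shown because they are the paralogues whose levels are set side by side below. The sequences are those of RefSeq (GRCm38.p6), which matched 7 of the 10 genes by symbol (all but Naprt, Nadk2 and Nnt), and CG dinucleotides, which read the same on both strands, are in capitals.
Nmnat1 (chr4:149485161-149485460, minus strand): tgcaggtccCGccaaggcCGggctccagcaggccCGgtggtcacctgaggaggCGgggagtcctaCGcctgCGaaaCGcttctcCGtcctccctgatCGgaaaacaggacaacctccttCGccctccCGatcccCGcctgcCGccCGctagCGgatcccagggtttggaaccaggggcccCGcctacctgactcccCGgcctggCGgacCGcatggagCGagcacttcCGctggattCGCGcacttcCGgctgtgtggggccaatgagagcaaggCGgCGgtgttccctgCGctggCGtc
Nmnat2 (chr1:152954851-152955150, plus strand): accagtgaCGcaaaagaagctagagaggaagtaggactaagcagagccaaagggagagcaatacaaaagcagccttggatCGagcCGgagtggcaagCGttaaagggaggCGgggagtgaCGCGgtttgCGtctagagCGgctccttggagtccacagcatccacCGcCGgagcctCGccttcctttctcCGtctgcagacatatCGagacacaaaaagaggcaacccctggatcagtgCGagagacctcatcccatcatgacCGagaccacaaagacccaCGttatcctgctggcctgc
Nmnat3 (chr9:98296320-98296619, plus strand): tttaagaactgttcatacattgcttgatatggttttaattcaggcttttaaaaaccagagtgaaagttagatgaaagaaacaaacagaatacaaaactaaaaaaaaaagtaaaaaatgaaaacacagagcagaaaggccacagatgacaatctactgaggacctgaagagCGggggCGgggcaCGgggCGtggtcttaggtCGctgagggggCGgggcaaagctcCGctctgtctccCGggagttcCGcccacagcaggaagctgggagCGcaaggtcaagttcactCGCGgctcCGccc
The Nmnat1 region held 28 CG dinucleotides, the Nmnat2 region 17 and the Nmnat3 region 13. Of 32851 mouse promoters of the same 300 bases, 14.2% held at least 28, 31.4% at least 17 and 37.9% at least 13, and the median was 7. The levels given below followed another order, with Nmnat2 first, and nothing about the start regions was tested.

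Expression was given as FPKM, the fragments on a gene divided by its transcript length and by the library size, which puts genes of different length on 1 scale. In the sentences below, the values of a group follow the order of its replicates from 1 to 3. Low FPKM values fall on multiples of 1 fragment, and from these steps a depth of 16550000 to 19450000 fragments was inferred per IVM sample and of 17950000 to 18050000 per IVO sample. The mean fragment length inferred with the depth was 205 to 220 bases in IVM and 245 to 260 in IVO. The part of this difference in the results below was not tested. The summed FPKM was 1826738 to 2111776 in IVM and 1560813 to 1643682 in IVO, and the median log2FC of the 18818 tested genes was -0.30 in IVO against IVM. With scaling by median ratios this median was -0.04, and with quantile normalization 0.17. The oocyte identity of the samples was seen in 10 of 10 oocyte markers, whose FPKM summed to 19824 to 26192 in IVM and 20255 to 22899 in IVO, with Oosp1 the highest, and 5 of the 10 were called lower in IVO. Of 15 cumulus and granulosa markers, 13 had a mean FPKM under 1, Areg and Amh were listed at 0 in all 6 samples, and the summed FPKM was 24.5 to 34.1 in IVM and 31.2 to 35.9 in IVO, with Cyp19a1 the highest. This sum was carried by Cyp19a1 and Fshr, and the low cumulus expansion markers Has2, Ptx3 and Tnfaip6 were wholly higher in IVO, at mean FPKM of 0.30, 0.113 and 0.427 beside 0.0933, 0.02 and 0.0567 in IVM. Ptgs2 had a higher mean in IVO (0.36 beside 0.0967 in IVM), with overlapping groups. Inha, Inhba, Foxl2, Cyp11a1, Star and Lhcgr went the other way by group mean, all with overlapping groups, for example Inha at 0.213 in IVO beside 0.57 in IVM. The 6 oviduct markers summed to 2.76 to 3.28 FPKM in IVM and 3.40 to 6.09 in IVO, with Epcam the highest and Pax8 at 0. The 7 blood markers summed to at most 1.60 FPKM in IVM and 1.05 to 20.9 in IVO, with Lyz2 the highest by the mean over all 6 samples, and the part of these cells in the results below was not tested.

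Nnt stood far above the other genes in both groups. Its mean of 199.5 ± 94.1 FPKM (SD, n = 3) in IVM oocytes exceeded that of 90.3% of the 13154 tested Ensembl genes, and its mean of 65.0 ± 15.1 FPKM (SD, n = 3) in IVO oocytes exceeded 82.2%. Nmnat2, Nmrk1, Nadk and Nampt formed a middle level between 7.68 and 19.5 FPKM in group means, Nadk2 and Nmnat1 lay between 1.70 and 3.55 FPKM, and Nadsyn1, Nmnat3 and Naprt lay under 1 FPKM. Of the 10 genes, 8 held the same place in the order of group means in IVM and IVO, and Nadk and Nmrk1 exchanged the third and the fourth. In IVM oocytes the samples of neighbouring genes overlapped between Nmnat2 and Nmrk1, between Nmrk1 and Nadk, and between Nmnat3 and Naprt. In IVO oocytes they overlapped between Nmnat2 and Nadk, between Nadk2 and Nmnat1, and between Nmnat3 and Naprt, so that these neighbours could not be ordered beyond the spread of the samples.

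**Figure D1:**
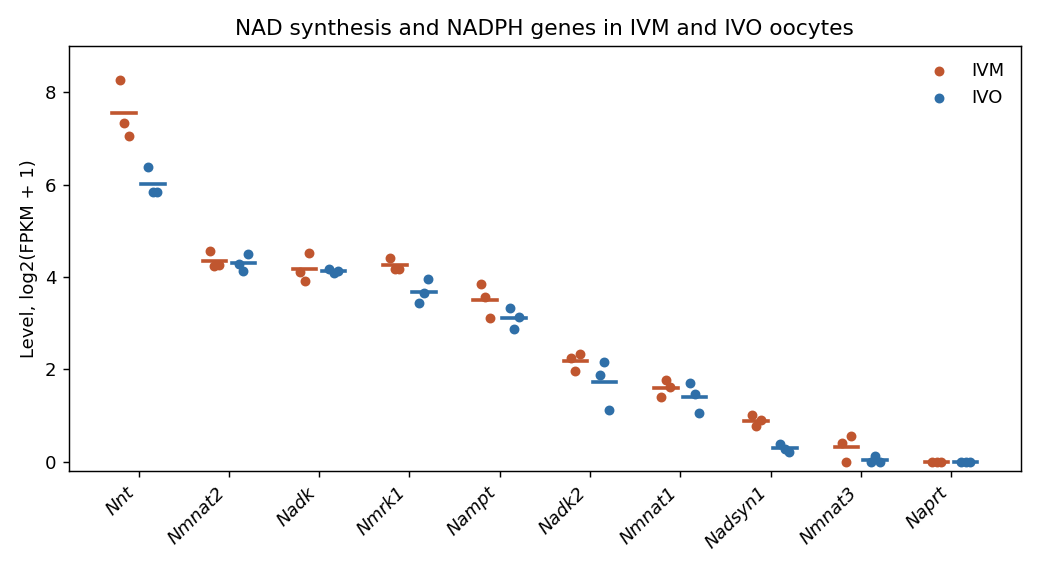
FPKM of the 10 genes in each of the 3 IVM and 3 IVO samples, on the log2(FPKM + 1) scale, with points for samples and bars for the mean of the plotted values. Nnt was the highest gene in both groups and its IVM samples lay above its IVO samples, whereas Naprt was listed at 0 in every sample.

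The groups were compared with limma on the log2(FPKM + 1) scale, after genes with a mean FPKM under 1 had been set aside, and the log2FC is IVO against IVM. A differentially expressed gene (DEG) had to show a |log2FC| of 1 or more together with a p-value below 0.05 after Benjamini-Hochberg adjustment over all tested genes. Of the 10 genes, 7 passed the filter on low FPKM and 3 (Nadsyn1, Nmnat3 and Naprt) did not. Of the 7, 1 was down-regulated in IVO oocytes (Nnt) and 0 were up-regulated, beside 18.5% of all tested genes called in either direction, 17.9% down-regulated and 0.606% up-regulated. At an unadjusted p under 0.05, 2 of the 7 were lower (Nnt and Nmrk1) and 0 were higher, beside 6950 of the 18818 tested genes in either direction. The counts at this cut that are given for the lists below stand beside the same general share. The IVM and IVO samples did not overlap for Nnt and Nmrk1, with IVO the lower group in both. Of all tested genes, 32.6% had IVO wholly lower and 9.62% had IVO wholly higher. All 7 log2FC values were negative on the FPKM as deposited, with a median of -0.40 beside -0.30 for all tested genes, and with quantile normalization 4 of these signs turned (Nmnat2, Nadk, Nampt and Nmnat1). Scaling also moved the split of all DEGs, of which 96.7% were lower in IVO as deposited, 84.6% on median ratios and 59.0% on quantiles. Since each sample is a bulk pool, less RNA per oocyte and fewer oocytes with a transcript cannot be told apart. Other readings of a lower FPKM, such as a difference in how well a transcript was captured, were not tested.

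**Figure D2:**
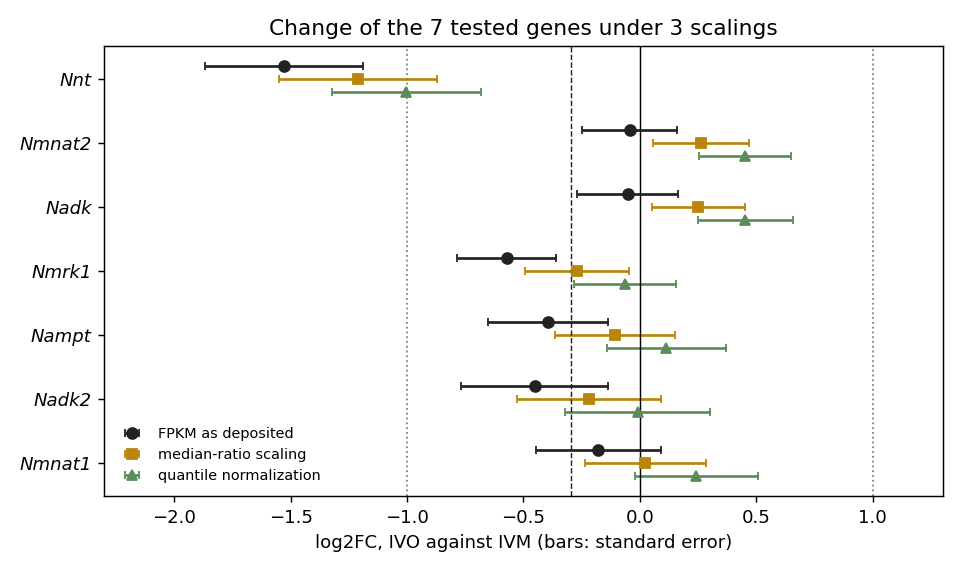
log2FC of the 7 tested genes in IVO against IVM oocytes with FPKM as deposited (circles), after median-ratio scaling (squares) and after quantile normalization (triangles), with standard errors as bars, dotted lines at the fold threshold and a dashed line at the median of all tested genes as deposited. Nnt lay lowest under all 3 scalings, at -1.53, -1.21 and -1.0, and the other 6 stayed within 1 of 0.

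The entry of precursors was represented by Nampt, Naprt, Nadsyn1 and Nmrk1, and the 2 genes of the nicotinic acid branch, Naprt and Nadsyn1, had group means under 1 FPKM. Nampt (chr12:32869544-32903368, plus strand, GRCm39), the rate-limiting enzyme of nicotinamide salvage, had 13.3, 10.8 and 7.60 FPKM in IVM oocytes, beside 9.0, 6.31 and 7.72 FPKM in IVO oocytes. The groups overlapped, and the log2FC of -0.40 ± 0.26 (SE) had a 95% interval from -1.0 to 0.21 (limma, adjusted p = 0.315). Naprt (chr15:75762805-75766413, minus strand), which phosphoribosylates nicotinic acid, was listed at 0 in all 6 samples, where 3 fragments would have corresponded to 0.091 to 0.108 FPKM. This limit covers counting error only. In the annotation, the largest overlap of an exon of Naprt with an exon of Eef1d, on the same strand, is 360 bases, and Eef1d was listed at 6.12 to 8.67 FPKM.

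Nadsyn1 (chr7:143349314-143376610, minus strand), the synthetase that amidates the dinucleotide made from nicotinic acid, was low in all samples, with every IVO value below every IVM value. It was measured at 1.02, 0.70 and 0.86 FPKM in IVM oocytes, beside 0.30, 0.21 and 0.16 in IVO oocytes, values that rest on about 33 to 41 inferred fragments per IVM sample and 7 to 13 per IVO sample. The mean in IVM was 3.85 times that in IVO. Nadsyn1 was below the filter, and when all 32852 genes above 0 in at least 1 sample were kept, its log2FC was -0.60 ± 0.11 (SE) with an adjusted p of 0.0263 in limma, short of the fold threshold on a scale that understates the change of low genes. With median-ratio scaling added, the log2FC was -0.50 and the adjusted p 0.0410.

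Nmrk1 (chr19:18608774-18629831, plus strand), the kinase of nicotinamide riboside, was the other precursor enzyme at the middle level. It was measured at 20.4, 16.9 and 17.0 FPKM in IVM oocytes, beside 9.88, 11.5 and 14.5 in IVO oocytes. Every IVM sample lay above every IVO sample, the means differed by 1.52-fold, and the log2FC was -0.57 ± 0.21 (SE), with a 95% interval from -1.07 to -0.07, an unadjusted p of 0.0306 and an adjusted p of 0.0969 in limma. It was not called a DEG, and the log2FC was -0.27 after scaling by median ratios and -0.06 after quantile normalization. With the trend with gene length removed, it was -0.77 and the adjusted p in limma 0.0441, still short of the fold threshold. The largest overlap of an exon of Nmrk1 with an exon of Ostf1, on the opposite strand, is 262 bases. Ostf1 had 27.8 to 39.9 FPKM in IVM and 17.3 to 30.1 in IVO. The library kit does not mark strand, so that reads from such a stretch cannot be told apart.

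At the adenylyltransferase step, Nmnat2 carried most of the transcript in every sample. Nmnat2 (chr1:152830695-152995011, plus strand), a short-lived enzyme best known for keeping axons intact, had 22.6, 17.8 and 18.1 FPKM in IVM oocytes, beside 18.3, 16.5 and 21.7 in IVO oocytes. Its share of the summed FPKM of the 3 Nmnat genes was 92.0%, 88.2% and 87.8% in IVM and 89.1%, 89.9% and 95.2% in IVO. The groups overlapped for Nmnat2, and its log2FC of -0.04 ± 0.20 (SE), with a 95% interval from -0.52 to 0.43 (limma, adjusted p = 0.901), turned to 0.26 with median-ratio scaling.

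Nmnat1 (chr4:149552026-149569680, minus strand), the nuclear enzyme, had 1.63, 2.39 and 2.05 FPKM in IVM oocytes, beside 2.25, 1.76 and 1.09 in IVO oocytes. These values rest on about 19 to 48 inferred fragments per sample. The groups overlapped, and the log2FC was -0.18 ± 0.27 (SE), with a 95% interval from -0.81 to 0.45 (limma, adjusted p = 0.675), and 0.02 with median-ratio scaling. Nmnat3 (chr9:98169483-98302816, plus strand), the mitochondrial enzyme, had 0.33, 0 and 0.47 FPKM in IVM oocytes, beside 0, 0.09 and 0 in IVO oocytes. It was listed at 0 in 1 IVM sample and in 2 IVO samples, and the highest value rested on about 18 inferred fragments. Without the filter, its log2FC was -0.28 ± 0.14 (SE; limma, adjusted p = 0.298). The low level of Nmnat1 and Nmnat3 beside Nmnat2 was seen in both groups, and by CG dinucleotides the start regions printed above came in the order Nmnat1, Nmnat2, Nmnat3.

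The 2 NAD kinases differed in level, and neither passed the test between the groups. Nadk (chr4:155646806-155675465, plus strand), the cytosolic kinase, had 16.2, 14.1 and 21.9 FPKM in IVM oocytes, beside 17.0, 16.01 and 16.4 in IVO oocytes. The narrow IVO samples lay inside the range of the IVM samples, and the log2FC was -0.05 ± 0.22 (SE), with a 95% interval from -0.56 to 0.46 (limma, adjusted p = 0.888), and 0.25 with median-ratio scaling. Nadk2 (chr15:9071264-9110979, plus strand), the mitochondrial kinase, had 3.73, 2.91 and 4.02 FPKM in IVM oocytes, beside 2.68, 3.50 and 1.19 in IVO oocytes. The groups overlapped, IVO3 was the lowest sample, and the log2FC was -0.45 ± 0.32 (SE), with a 95% interval from -1.20 to 0.29 (limma, adjusted p = 0.351).

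Within each sample, 3 ratios of FPKM with a pseudocount of 1 were compared by a two-sided exact permutation test, which cannot give a p below 0.1 for 3 against 3 samples. For Nadk2 over Nadk, IVM oocytes gave a log2 ratio of -2.00 ± 0.17 (SD, n = 3) and IVO oocytes one of -2.40 ± 0.54 (SD, n = 3), with a difference of -0.40 (exact permutation p = 0.3, adjusted over the 3 ratios 0.45). The ratio of Nampt to Naprt, which reduces to Nampt because Naprt was at 0, differed by -0.40 (exact permutation p = 0.3, adjusted 0.45), and that of Nmnat3 to Nmnat1 by -0.10 (exact permutation p = 0.7, adjusted 0.70). The last of these says little about Nmnat3, which was at 0 in 3 of the 6 samples, so that the ratio mostly restates Nmnat1, and with a pseudocount of 0.1 its difference was -0.95 (exact permutation p = 0.4). For the kinases, the difference was within the spread of the samples, and with a pseudocount of 0.1 it was -0.57 (exact permutation p = 0.3).

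Nnt, the transhydrogenase that couples NADPH formation to the mitochondrial proton gradient, was the DEG of the group. Under its first identifier (ENSMUSG00000025453, chr13:119470859-119566380, minus strand, GRCm39) it had 306.8, 160.9 and 130.9 FPKM in IVM oocytes, beside 82.4, 56.4 and 56.1 FPKM in IVO oocytes. Every IVM sample lay above every IVO sample, and IVM1 stood highest of all. The mean was 3.07-fold higher in IVM, and the log2FC was -1.53 ± 0.34 (SE), with a 95% interval from -2.33 to -0.73 and an adjusted p of 0.0190 in limma. The second identifier (ENSMUSG00000116207) was listed at 0 in all 6 samples.

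The call on Nnt lay close to the threshold. Over 18 alternatives the log2FC was between -1.78 and -1.0 and the adjusted p in limma between 0.0148 and 0.0921. Leaving out IVM2, IVO2 or IVO3 ended the call, with log2FC values of -1.63, -1.44 and -1.44 and adjusted p-values of 0.0527, 0.0586 and 0.0519, and so did quantile normalization, at -1.0 with an adjusted p of 0.0571, and no filter together with median-ratio scaling, at -1.21 with an adjusted p of 0.0921. Without IVM1, the highest sample, the log2FC was -1.17 and the adjusted p 0.0358. IVM1 was also the highest IVM sample for 8 of the 10 oocyte markers, among them Zp2, an egg coat protein, at 874 FPKM beside 398 and 414. Other lists had this less often. IVM1 was highest for 5 of the 10 genes described here and 3 of the 15 cumulus and granulosa markers. In lists described below, it was highest for 9 of 25 enzymes that cleave NAD, 6 of 12 genes listed with the NADH shuttles and 1 of 16 listed as NADPH-producing. The part of this library's difference in the level of Nnt was not tested.

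The largest overlap of an exon of Nnt with an exon of Paip1, a translation regulator on the opposite strand, is 317 bases. With Gm9777, a long noncoding RNA on the opposite strand without a value in the expression matrix, it is 382 bases. Reads from such stretches cannot be told apart. Paip1 had 291, 326 and 309 FPKM in IVM oocytes, beside 441, 454 and 455 in IVO oocytes, so that its IVO samples were the higher ones. The part of overlapping reads in the level of Nnt was not tested. The C57BL/6J strain, from which the mouse reference genome comes, is known to lack some exons of Nnt, so that fragments from those exons may not be counted by an alignment to that reference. The tested Ensembl genes whose profile over the 6 samples was most like that of Nnt were Lmod3, 1700010D01Rik and Ighg1, at a root mean square difference of 0.11, 0.15 and 0.16 on the centred log2(FPKM + 1) scale. By the way they were chosen, all 3 shared the high value of IVM1. Lmod3, for example, had 15.4 FPKM there, beside 7.47 and 6.49 in the other IVM samples and 1.79 to 3.0 in IVO.

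Among the other enzymes that make NADPH, Idh2 was much lower in IVO oocytes and was the DEG of its list. This list holds NADPH-producing dehydrogenases together with related enzymes, such as Me2 and Mthfd1l, that are not established NADPH sources. Of its 16 genes, 10 were tested, 1 was down-regulated and 0 up-regulated in IVO oocytes, with a median log2FC of -0.25, beside 17.9% and 0.606% of all tested genes. At an unadjusted p under 0.05 there was 1 lower and 1 higher (Idh1, the cytosolic enzyme, with 20.9 to 22.3 FPKM in IVM and 32.2 to 32.5 in IVO), and Idh1 was called with quantile normalization (log2FC 1.04). Idh2, the mitochondrial isocitrate dehydrogenase that reduces NADP, had 110.6, 109.6 and 78.7 FPKM in IVM oocytes, beside 5.76, 4.56 and 0.20 in IVO oocytes. The groups were far apart, the mean was 28.4-fold higher in IVM, and the log2FC was -4.80 ± 0.62 (SE; limma, adjusted p = 0.00322). Idh2 was called under all 18 alternatives, with log2FC values from -5.61 to -4.02. Me1, the cytosolic malic enzyme and the highest gene of the list by the mean over all 6 samples, had 120.1, 100.5 and 150.6 FPKM in IVM and 107.1, 87.3 and 59.2 in IVO, with overlapping groups (log2FC -0.57 ± 0.27, SE; limma, adjusted p = 0.176).

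**Figure D3:**
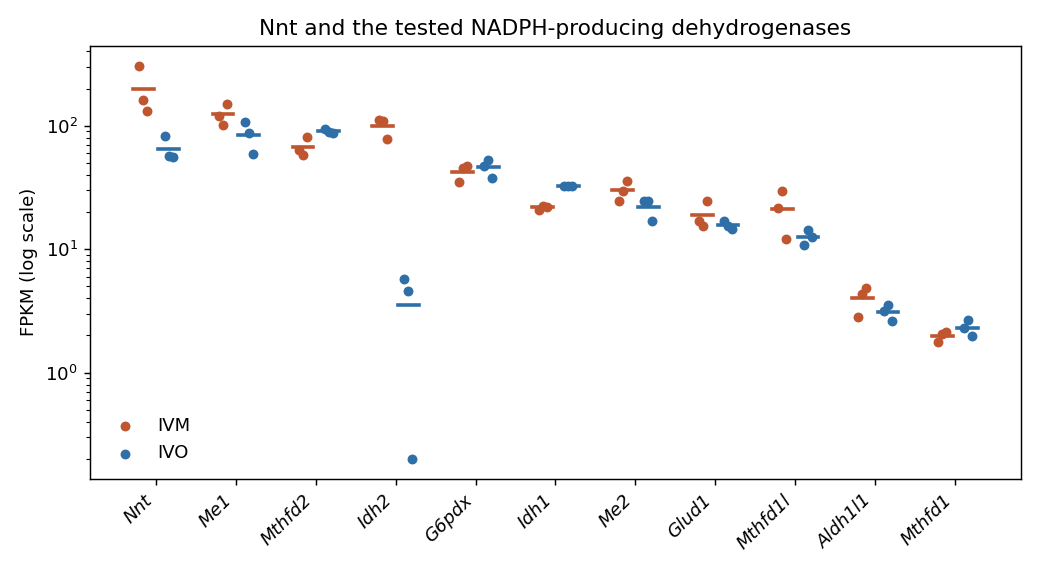
FPKM on a log axis of Nnt and the 10 tested NADPH-producing dehydrogenases and related enzymes in each of the 3 IVM and 3 IVO samples, with points for samples and bars for the mean FPKM. Idh2 fell from 78.7 to 110.6 FPKM in IVM to 0.20 to 5.76 in IVO, Nnt from at least 130.9 to at most 82.4, and no other gene shown was called a DEG.

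Genes that use NADPH in redox defence gave no DEG in limma. Of 14, 10 were tested and 0 were called in either direction, beside 18.5% of all tested genes. The median log2FC was -0.41, and at an unadjusted p under 0.05 there were 3 lower and 0 higher. Txnrd2, the mitochondrial thioredoxin reductase and the highest of them by that mean, had 145.5, 141.0 and 103.9 FPKM in IVM oocytes, beside 66.7, 52.0 and 76.3 in IVO oocytes. Its groups did not overlap, and its log2FC of -0.99 ± 0.22 (SE; limma, adjusted p = 0.0200) lay just short of the fold threshold. With a pseudocount of 0.1, or with the trend of FPKM with gene length removed, 2 genes of the list were called lower (Txnrd2 and Cbr1, a carbonyl reductase), and without IVM3 or IVO3 there was 1 (Txnrd2).

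The kynurenine route, which makes NAD from tryptophan, had 6 of its 9 genes at a mean FPKM under 1. Of the 9, 3 were tested and 0 were called in limma, beside 18.5% of all tested genes called in either direction. The median log2FC was 0.05, and at an unadjusted p under 0.05 there were 0 lower and 1 higher. Among the 6 low genes was Qprt, the enzyme that brings the route to a mononucleotide, listed at 0.08 FPKM in 1 sample and 0 in the other 5. The gene that was higher at an unadjusted p under 0.05 was Tdo2, the dioxygenase that opens the route, with 3.45, 1.85 and 2.14 FPKM in IVM oocytes, beside 4.19, 9.67 and 4.66 in IVO oocytes. Its IVO samples lay wholly above its IVM samples (log2FC 0.99 ± 0.34, SE; limma, adjusted p = 0.0787), and it was called higher in IVO with median-ratio scaling (1.242), same-sum scaling (1.25) and quantile normalization (1.45). Afmid, the formamidase of the route and its highest gene by mean, had 75.5, 71.8 and 65.3 FPKM in IVM oocytes, beside 37.5, 35.0 and 71.2 in IVO oocytes, with overlapping groups (log2FC -0.63 ± 0.29, SE; limma, adjusted p = 0.163). Of 12 further genes of salvage, transport and repair, 6 were tested and 0 were called in limma, beside the same 18.5% of all tested genes. Their median log2FC was -0.05, with 1 lower and 0 higher at an unadjusted p under 0.05. Noct, a phosphatase of NADP(H) and the highest of these, had 91.6, 121.1 and 155.0 FPKM in IVM and 135.6, 162.0 and 171.1 in IVO, with overlapping groups (log2FC 0.37 ± 0.23, SE; limma, adjusted p = 0.291).

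Among 25 enzymes that cleave NAD, 19 were tested, 3 were down-regulated and 1 was up-regulated in IVO oocytes, beside 17.9% and 0.606% of all tested genes, so that the count of lower genes was near the general share. The median log2FC was -0.24, and at an unadjusted p under 0.05 there were 6 lower and 1 higher. Parp14, a mono-ADP-ribosyltransferase, had 481.1, 377.3 and 313.9 FPKM in IVM oocytes, beside 119.3, 184.5 and 145.9 in IVO oocytes (log2FC -1.38 ± 0.24, SE; limma, adjusted p = 0.00790). Parp12, of the same family, moved the other way, from 126.4, 142.5 and 192.1 FPKM in IVM to 314.8, 321.7 and 280.2 in IVO (log2FC 1.01 ± 0.20, SE; limma, adjusted p = 0.0128). The groups of both genes were wholly apart. Sarm1, a NAD hydrolase known from axon degeneration, had 47.8, 43.7 and 36.7 FPKM in IVM and 11.1, 22.9 and 13.9 in IVO (log2FC -1.42 ± 0.28, SE; limma, adjusted p = 0.0134), and Parp9 had 6.83, 11.5 and 6.44 in IVM and 0.99, 2.88 and 2.88 in IVO (log2FC -1.53 ± 0.35, SE; limma, adjusted p = 0.0215). Tiparp, the highest of the list by the mean over all 6 samples and in IVO, though below Parp14 in IVM, had 261.5 to 340.4 FPKM in IVM and 380.5 to 418.3 in IVO and was not called (log2FC 0.38 ± 0.16, SE; limma, adjusted p = 0.138).

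These 4 calls were not equally firm. Without IVM1 only Parp14 was still called, since Sarm1 then had an adjusted p of 0.0557 and Parp9 of 0.0611 in limma and Parp12 a log2FC of 0.88. Parp9 was also lost without IVM2 (adjusted p = 0.0704 in limma) or IVM3 (0.0501), and with median-ratio scaling (0.0538). The log2FC of Parp12 was 0.96 without IVM2, 0.98 without IVO1 and 0.97 without IVO2, each under the fold threshold. It fell furthest with the length trend removed, to 0.77, where the replicate block gave an adjusted p of 0.0671 in limma. With the length trend removed and no block, the count stayed at 4 because Sirt2 was called lower (log2FC -1.15, adjusted p = 0.0173 in limma). The order turned with quantile normalization, where Parp12 was the gene called (1.51), while Parp14 had a log2FC of -0.87 and Sarm1 and Parp9 adjusted p-values of 0.0525 and 0.0771 in limma. Without IVO3 there were 6 calls, with Parp16 and Tnks2 added as lower in IVO.

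The list of NADH shuttles between cytosol and mitochondria also holds lactate dehydrogenase genes. It held 3 DEGs, all down-regulated in IVO oocytes, among 11 tested of 12, beside 17.9% of all tested genes called lower. The median log2FC of the list was -0.45. At an unadjusted p under 0.05 there were 3 lower and 2 higher, the latter Slc25a13, a mitochondrial aspartate and glutamate carrier, and Gpd1l, a glycerol phosphate dehydrogenase. Both were called higher with quantile normalization (log2FC 1.02 and 1.11), where Mdh2 was lost (-0.96). Ldhb, a lactate dehydrogenase subunit and the highest gene of all the lists around NAD, had 5734, 4616 and 4069 FPKM in IVM oocytes, beside 1189, 1031 and 964 in IVO oocytes. Its groups were wholly apart, at 4.53-fold higher in IVM (log2FC -2.17 ± 0.17, SE; limma, adjusted p = 9.05e-04), and it was called under all 18 alternatives. Got1, the cytosolic aspartate aminotransferase, had 34.1, 17.1 and 15.95 FPKM in IVM and 6.79, 7.12 and 3.87 in IVO (log2FC -1.71 ± 0.35, SE; limma, adjusted p = 0.0146). Mdh2, the mitochondrial malate dehydrogenase, had 6.22, 2.73 and 4.19 FPKM in IVM and a mean of 0.983 ± 0.283 FPKM (SD, n = 3) in IVO (log2FC -1.40 ± 0.31, SE; limma, adjusted p = 0.0181), and its adjusted p was 0.0535 without IVM3, 0.0506 without IVO2 and 0.0507 without IVO3.

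**Figure D4:**
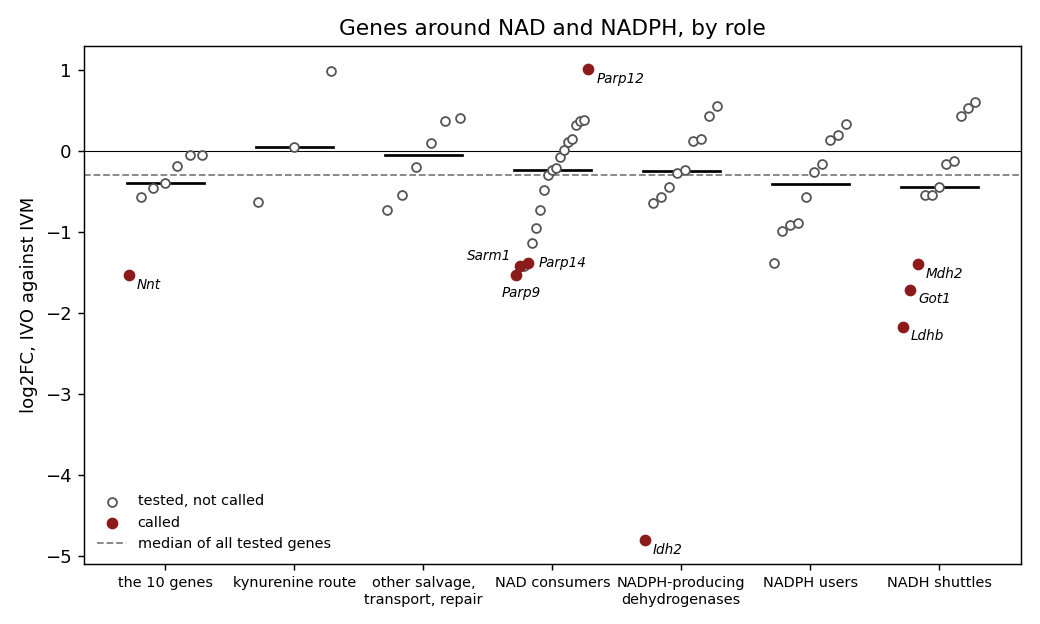
log2FC in IVO against IVM oocytes of the tested genes of each list, with called DEGs filled and named, other tested genes as open circles, a black bar at each list's median and a dashed line at the median of all tested genes. Idh2 lay lowest at -4.80, Parp12 was the DEG above 0, and the list medians lay between -0.45 and 0.05.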

How the data were processed

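Reads were cleaned by the authors (SeqPrep, Sickle) and mapped to GRCm39 with HISAT2 2.1.0, and the deposited values are the FPKM of every gene in each sample, estimated with RSEM 1.3.3. The same matrix holds group means (not used), a length and annotation text for each gene. Their own test used DESeq2 1.24.0 on counts, which were not used here. The annotation release is not given in the sources used here. Libraries were made with SMART-Seq v4 and Nextera XT, which keep no strand.

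FPKM entered limma 3.58.1 (R 4.3.3; lmFit, eBayes with trend) as log2(FPKM + 1), with the group as the model, for 18818 genes whose mean FPKM reached 1, two-sided p-values and Benjamini-Hochberg adjustment over all tested genes. The thresholds are those of the study. The fit was also run on simulated data with independent noise and as many raised as lowered genes. Most DEGs here were lower in IVO, so that run does not bear on this imbalance. Depth was inferred from the steps of low FPKM values, of which 78.9% to 80.6% per library lay within 0.15 of a whole number of fragments. Floors cover counting error only. Coordinates and exonic overlaps come from GENCODE for GRCm39. Tables and exact permutation tests used Python 3.11.15, pandas 2.3.3, numpy 2.4.6 and scipy 1.17.1.

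The 10 genes and the gene lists were chosen with earlier results of these data known. The text names all 10 genes, the called genes and the highest gene of each list, the highest gene of each marker list, and the 3 genes most like the highest of the 10. Areg, Amh, Has2, Ptx3, Tnfaip6, Fshr, Pax8, Qprt, Tdo2, Idh1, Cbr1, Parp16, Tnks2, Slc25a13, Gpd1l, Zp2 and the genes that overlap any of the 10 were named after their values were seen. The same holds for Ptgs2, Inha, Inhba, Foxl2, Cyp11a1, Star, Lhcgr, Me2, Mthfd1l and Sirt2. As alternatives, the pseudocount was set to 0.1, the filter was dropped or raised to a mean FPKM of 5, the libraries were scaled by median ratios, to the same sum or by quantiles, and the fit was run without the eBayes trend or with a replicate block. Further ones were the removal of the length trend by lowess (span 0.3) with and without the block, Ensembl genes only, and leaving out each sample. No filter together with median-ratio scaling was added after seeing the data.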

Additional observations from a re-analysis of the deposited data

How the results depend on the processing

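Nnt stayed lower in IVO under all 18 alternatives and was called under 13. The number of the 10 genes called, 1 as reported, was 0 with quantile normalization, 0 with no filter and median-ratio scaling together, and 0 to 1 with 1 sample left out. The sign of genes that were not called depended on the scaling. With median-ratio scaling, same-sum scaling, quantile normalization, and no filter with median-ratio scaling, the log2FC was 0.26, 0.28, 0.45 and 0.27 for Nmnat2, 0.25, 0.27, 0.45 and 0.26 for Nadk, and 0.024, 0.039, 0.24 and 0.026 for Nmnat1, and that of Nampt was 0.11 with quantile normalization. With 1 sample left out, the log2FC was between -0.145 and 0.061 for Nmnat2 and between -0.18 and 0.12 for Nadk, and the log2 ratio of Nmnat3 to Nmnat1 differed by -0.35 to 0.064.

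The kynurenine route had 1 called gene (Tdo2, higher in IVO) with median-ratio, same-sum or quantile scaling, against 0 as reported. Of the NAD-cleaving enzymes, 1 was called with quantile normalization, 1 with no filter and median-ratio scaling, and 1 (without IVM1) to 6 (without IVO3) with 1 sample left out, against 4. The list of NADPH-producing dehydrogenases and related enzymes had 2 with quantile normalization, against 1. The NADPH users had 2 with a pseudocount of 0.1, 2 with the length trend removed, 1 with the length trend removed under the replicate block, and 0 to 1 with 1 sample left out, against 0. The list of NADH shuttles and lactate dehydrogenases had 1 with no filter and median-ratio scaling, against 3. The causes were not tested.

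Samples of the 2 groups share replicate numbers, but same-numbered samples did not deviate together (r = -0.06, -0.02 and -0.11 across genes, against -0.02 to 0.08 for the others), and no sample of either group correlated best with its own number. With the replicate block, 2899 genes were called lower and 92 higher, against 3366 and 114 without it, and Nnt was still called (-1.53, adjusted p = 0.0162 in limma).

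Depth limits Nadsyn1, Nmnat3 and Naprt, whose values rest on at most 41 inferred fragments, and also Nmnat1, whose values rest on 19 to 48.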
